A study of Mus musculus with 9 samples.

Results

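The genes described here encode the nuclear-encoded subunits of oxidative phosphorylation, with the assembly factors and close relatives that share their names. They were chosen by gene symbol: every transcript cluster of the signal table with a symbol starting with 1 of 16 prefixes (Ndufa, Ndufb, Ndufc, Ndufs, Ndufv, Sdha, Sdhb, Sdhc, Sdhd, Uqcr, Cox4, Cox5, Cox6, Cox7, Cox8 and Atp5) was taken, which gave 98 of 22206 clusters and 96 symbols. The rule itself uses no measured value, although the group of genes was picked with earlier results of these data known. Of the 98 clusters, 37 were subunits of complex I, 4 of complex II, 8 of complex III, 19 belonged with complex IV and 16 were subunits of complex V. The remaining 14 were 11 assembly factors (Ndufaf1 to Ndufaf7 and Sdhaf1 to Sdhaf4), the paralogue Ndufa4l2, and Atp5s and Atp5sl. Atp5d and Ndufa13 each had 2 clusters, and the symbol of 1 of the Ndufa13 clusters also names Yjefn3. In all, 93 members lay above the low-signal filter, which kept clusters with a mean log2 signal over the 9 arrays above 5.98, and Cox4i2, Cox6b2, Cox8b, Ndufa4l2 and Sdhaf4 lay below it.

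RNA came from the hippocampus of 9 male ICR mice, an outbred strain, 8 weeks old, with 1 Clariom S array per mouse and 3 mice in each group. After 7 days of acclimation in single housing, the mice inhaled for 7 days, by whole-body exposure from a nebulizer, either vehicle (1% Tween 80), 1% linalyl acetate (1% LA) or 10% linalyl acetate (10% LA). Linalyl acetate is the fragrant ester of lavender and bergamot oils. All 9 mice, vehicle mice included, went through a tail suspension test after 30 min of inhalation. The descriptions of 5 samples disagree with this account, since they speak of saline or oleacein by mouth and of injected saline or LPS, and the design text of the series names human cells. Groups were therefore taken from the sample titles alone.

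Oxidative phosphorylation takes place at the inner mitochondrial membrane. Complex I (NADH dehydrogenase) and complex II (succinate dehydrogenase, also an enzyme of the citric acid cycle) pass electrons to ubiquinone, complex III (the cytochrome bc1 complex) passes them on to cytochrome c, and complex IV (cytochrome c oxidase) passes them to oxygen. Complexes I, III and IV pump protons, and complex V (ATP synthase) uses the return of the protons to make ATP. A few subunits of complexes I, III, IV and V are encoded in mitochondrial DNA and all others, those studied here among them, in the nucleus. Neurons meet most of their ATP demand in this way.

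Promoters of these genes are known for sites of the nuclear respiratory factor NRF1, of ETS-family factors (among them GABPA, also called NRF-2) and of YY1, and 4 promoters are shown because they belong to members described below and carry such motifs. The windows run from 250 bases before to 50 bases after the start annotated by RefSeq (GRCm38.p6), are written 5′ to 3′ on the gene's strand, and have the motif matches in capitals. Ndufs5 (chr4:123718137-123718436, minus strand) holds an NRF1 match. Ndufs6 (chr13:73328433-73328732, minus strand) holds an NRF1 match and, further on, a YY1 match. Atp5e (chr2:174464052-174464351, minus strand) holds an ETS match, and Ndufaf5 (chr2:140170396-140170695, plus strand) holds an NRF1 match on each strand at the same place.
Ndufs5: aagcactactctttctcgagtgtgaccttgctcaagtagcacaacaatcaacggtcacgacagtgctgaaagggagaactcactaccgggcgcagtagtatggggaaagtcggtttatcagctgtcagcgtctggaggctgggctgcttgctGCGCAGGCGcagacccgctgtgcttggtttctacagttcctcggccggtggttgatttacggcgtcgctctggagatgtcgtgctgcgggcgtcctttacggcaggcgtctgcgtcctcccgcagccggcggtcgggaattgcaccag
Ndufs6: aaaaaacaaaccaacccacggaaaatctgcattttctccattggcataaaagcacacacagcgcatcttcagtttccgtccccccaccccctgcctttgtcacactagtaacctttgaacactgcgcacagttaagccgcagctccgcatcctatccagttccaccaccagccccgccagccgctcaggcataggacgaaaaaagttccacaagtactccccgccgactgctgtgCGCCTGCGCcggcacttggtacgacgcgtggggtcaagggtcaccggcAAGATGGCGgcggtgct
Atp5e: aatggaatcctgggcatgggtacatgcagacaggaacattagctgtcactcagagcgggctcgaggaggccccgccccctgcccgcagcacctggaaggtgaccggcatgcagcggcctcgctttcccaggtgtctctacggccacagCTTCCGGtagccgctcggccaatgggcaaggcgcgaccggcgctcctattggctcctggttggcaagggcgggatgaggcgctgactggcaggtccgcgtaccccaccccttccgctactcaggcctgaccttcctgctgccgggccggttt
Ndufaf5: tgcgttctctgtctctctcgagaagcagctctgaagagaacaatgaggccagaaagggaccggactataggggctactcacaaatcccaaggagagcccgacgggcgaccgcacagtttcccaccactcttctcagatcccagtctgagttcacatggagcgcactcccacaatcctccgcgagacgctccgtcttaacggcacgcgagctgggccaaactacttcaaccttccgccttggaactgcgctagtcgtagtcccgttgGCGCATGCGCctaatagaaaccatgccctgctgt

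All 96 member symbols matched a RefSeq gene name, 3 of them through an older name, and 80 of the genes had 86 promoter windows of 300 bases. The motifs GCGCANGCG (NRF1), CCGGAAG (ETS) and AAGATGGCG (YY1) were searched on both strands. The NRF1 form was shortened at its end after counts of a longer form had been seen, and a shorter form can only match more windows, among members and among all genes. The NRF1 motif stood in 25 of the 86 member windows (29.1%) and in 6.25% of all 32851 windows. The ETS motif stood in 20 member windows (23.3%) and in 8.86% of all windows. The YY1 motif stood in 9 member windows (10.5%) and in 1.40% of all windows. At least 1 of the motifs stood in 45 member windows (52.3%) and in 14.8% of all windows, and 9 member windows held more than 1 kind of motif. Matches of different motifs overlapped in 0 member windows and in 4 of all windows. A match describes letters in the window, and binding was not measured. The members described below include genes with and without a match: Ndufb10 held an NRF1 match and Ndufab1 held 0 matches of any kind.

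The arrays had median log2 signals between 6.84 and 6.88 over all clusters, and their number, 3 per group, limits the precision. Of the 12 neuron markers checked, all 12 lay above the filter, with median differences from vehicle of -0.030 at 1% LA and -0.070 at 10% LA. The medians were -0.070 and -0.098 over 8 GABA neuron markers and 0.032 and -0.055 over 8 endothelium markers. Markers of some other cells differed more. The median over 10 oligodendrocyte markers was 0.205 at 1% LA and 0.64 at 10% LA, but -0.28 and 0.11 in the series matrix. That over 10 microglia markers was 0.355 and 0.345, and 0.13 and 0.25 in the series matrix. Over 8 ependyma markers it was 0.387 and 0.312, and 0.228 and 0.027 in the series matrix. Over 6 blood clusters it was 0.447 and 0.248, and 0.200 and 0.135 there. Over 10 astrocyte markers it was 0.040 and 0.193, and -0.024 and 0.078 there. The mean deviation of the oligodendrocyte markers in vehicle replicate 3 was -0.95 in the signal table and 0.44 in the series matrix, and their part in the members' differences was not tested. The third vehicle array stands apart in the deposit itself: its columns in the signal table and in the series matrix had a correlation of 0.981 over the clusters, with 1778 clusters more than 1 log2 unit apart. For every other array that correlation was 0.9993 or more. Among the 93 members kept, vehicle replicate 3 lay more than 0.5 log2 units apart between the tables in 41, higher in the signal table in 25 and lower in 16. For the other 8 arrays the largest such distance was 0.228. Values below are log2 signals of the signal table unless the series matrix is named, and most differences from vehicle are given from both tables.

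Markers of the choroid plexus, 20 in all, had a median difference from vehicle of 2.34 at 1% LA and 1.15 at 10% LA. In the series matrix it was 1.2035 and 0.189. Above vehicle lay 20 and 19 of them, and 20 and 13 in the series matrix. Limma's unadjusted p was under 0.05 for 18 and 7, all higher, and for 1 and 0 in the series matrix. After adjustment 0 passed in either table. The level of these 20 markers also differed between the vehicle arrays. The list's mean deviation from its 9-array mean was -2.12, 0.247 and -2.04 log2 units in vehicle replicates 1 to 3, 1.78, 0.974 and 0.860 in the 1% LA arrays, and 1.39, -1.20 and 0.116 in the 10% LA arrays. Vehicle replicate 3 stood at 1.06 in the series matrix. Of the 20 markers, 18 lay above the filter, and Ttr, which encodes transthyretin, ranged from 10.42 in vehicle replicate 1 to 19.64 in 1% LA replicate 1. The bulk RNA cannot tell fewer cells of a type from less RNA per cell, and the part of tissue composition in the members' differences was not tested beyond a fit that includes the choroid plexus level, given below.

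The comparisons asked whether inhaled linalyl acetate was accompanied by a different expression of these genes. No member passed limma's moderated test at an adjusted p under 0.05 at either dose: the smallest adjusted p of a member was 0.385 at 1% LA and 0.312 at 10% LA, and 0% of the 13321 clusters kept were called at either dose. At an unadjusted p under 0.05, limma placed 7 members lower and 0 higher than vehicle at 1% LA, where 5.6% of all clusters kept were lower and 6.33% higher by the same rule. At 10% LA it placed 11 members lower and 0 higher, where 7.12% of all clusters were lower and 6.79% higher. In the series matrix these counts were 2 lower and 0 higher at 1% LA (2.51% and 2.3% of all clusters) and 5 lower and 0 higher at 10% LA (3.32% and 2.42%). Both comparisons share the 3 vehicle arrays, so the doses are not independent: 52 of the 93 members kept lay below vehicle at both doses in the signal table and 51 in the series matrix. The share of all clusters below vehicle at both doses was not counted, so these counts are no result about the members.

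Over all 98 members the median log2 difference from vehicle was -0.14 at 1% LA and -0.13 at 10% LA, beside -0.017 and -0.013 over all 22203 clusters with a symbol. Of the 5 complexes, complex I had the lowest median at both doses in both tables. Its median difference was -0.23 at 1% LA and -0.25 at 10% LA. Complex III had -0.082 and -0.13, complex V had -0.045 and -0.032, complex IV had -0.090 and 0.010, and complex II had 0.15 and 0.0017. In the series matrix the medians were -0.11 and -0.15 for complex I, -0.015 and -0.083 for complex III, -0.045 and -0.057 for complex V, -0.054 and -0.048 for complex IV, and -0.027 and -0.13 for complex II. The complex IV median takes in Cox7a2l, which is not a subunit, and forms known from other tissues, and 16 of its 19 clusters lay above the filter. At 10% LA it was the value of Cox7a2l in both tables. These medians are descriptions, and differences between complexes were not tested.

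**Figure D1:**
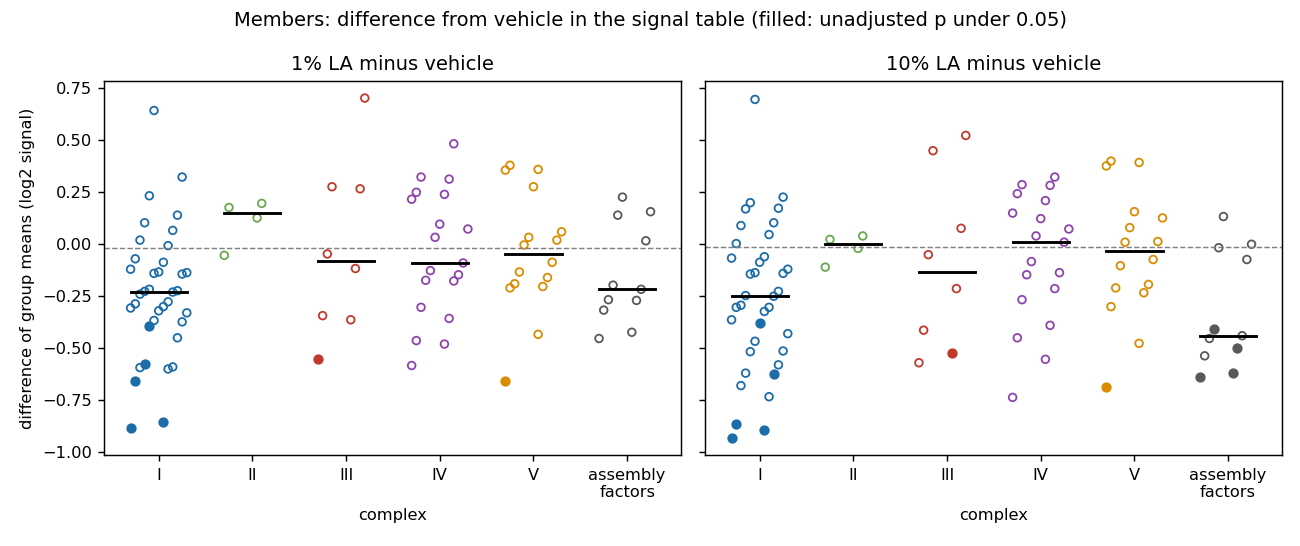
Difference of group means (log2 signal, signal table) of each subunit, with Cox7a2l in complex IV, and of each assembly factor at 1% LA (left) and 10% LA (right). Each point is 1 cluster, filled where limma's unadjusted p was under 0.05, thick lines are medians and the dashed line is the median of all clusters. The complex I median lay at -0.23 and -0.25, and every filled point lay below 0.

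The array-by-array view shows where the difference lies. The median complex I subunit deviated from its own 9-array mean by -0.031, 0.37 and 0.18 log2 units in vehicle replicates 1, 2 and 3, by 0.016, -0.044 and -0.23 in the 1% LA arrays and by -0.11, 0.0089 and -0.23 in the 10% LA arrays. Vehicle replicates 2 and 3 were thus the high arrays, and vehicle replicate 1 lay inside the range of the treated arrays. In the series matrix the same 3 vehicle values were -0.017, 0.41 and -0.081, so that vehicle replicate 2 alone stood high there. For complex III the vehicle medians were -0.063, 0.26 and 0.17 in the signal table and -0.032, 0.27 and -0.031 in the series matrix. Complexes IV and V varied less from array to array, with array medians between -0.11 and 0.097 and between -0.044 and 0.065 in the signal table.

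**Figure D2:**
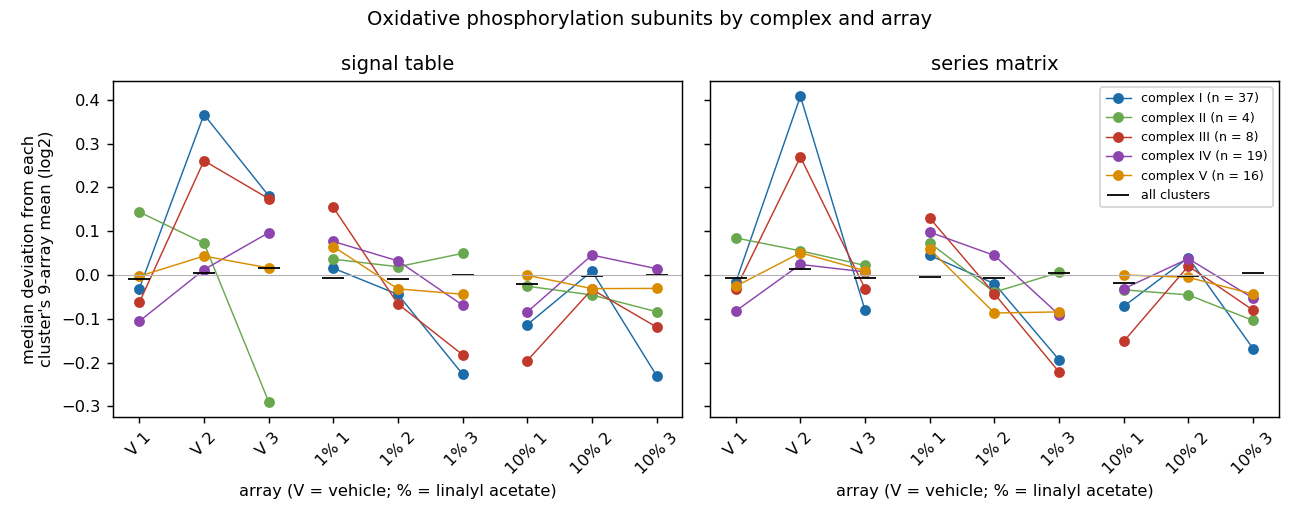
Median deviation of the subunits of each complex, with Cox7a2l in complex IV, from their own 9-array means (log2), by array, in the signal table (left) and the series matrix (right). Lines join the 3 arrays of a group for reading only, and black dashes are the median of all clusters. Complex I stood at 0.37 and 0.18 in vehicle replicates 2 and 3 of the signal table, and at 0.41 and -0.081 in the series matrix.

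Counted by member, vehicle replicates 2 and 3 were the 2 highest of the 9 arrays in 31 of 93 members (33.3%), beside 12.6% of all clusters kept, and the 2 lowest in 8 (8.6%), beside 13.4%. The count uses the same members whose medians marked out these 2 arrays above, so it describes that pattern and is no separate support for it. By complex, these arrays were the 2 highest in 15 of 37 complex I subunits, 0 of 4 of complex II, 4 of 8 of complex III, 6 of 16 kept members of complex IV and 4 of 16 of complex V. They were the 2 lowest in Ndufs7 of complex I, in Uqcrc2 and Uqcrh of complex III, in Cox6a1 and Cox8a of complex IV and in Atp5d, Atp5f1 and Atp5g2 of complex V, names chosen after their values were seen. In the series matrix the counts were 3 and 0 of 93, beside 3.32% and 2.99% of all clusters. The median SD of a member within its group was 0.30 among vehicle arrays, 0.20 at 1% LA and 0.20 at 10% LA, beside 0.26, 0.21 and 0.22 over all clusters kept.

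**Figure D3:**
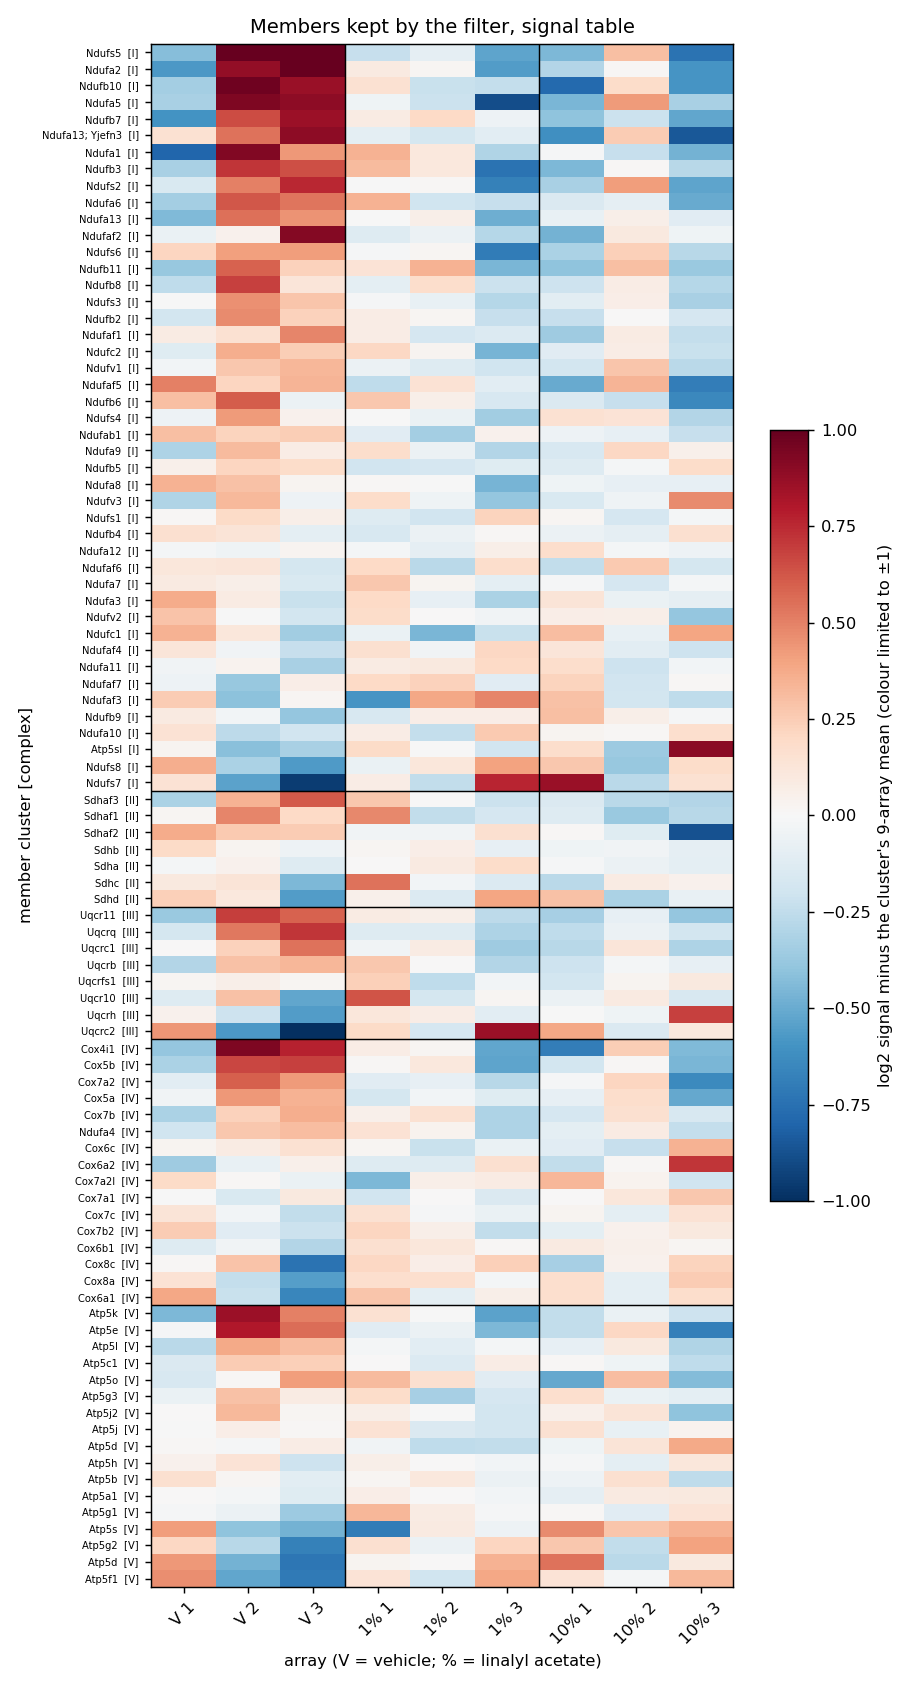
Log2 signal of each of the 93 members kept minus its 9-array mean, by array (signal table), with complexes I to V from top to bottom and members sorted within a complex by their values in vehicle replicates 2 and 3. Colour is limited to ±1. These 2 arrays were the highest in 31 members, and the lowest in 8.

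Complex I has a core that carries flavin and iron-sulfur clusters and many accessory subunits around it. Of its 37 clusters, 30 lay below vehicle at 1% LA and 28 at 10% LA in the signal table, and 25 and 29 in the series matrix. Of all clusters, 52.3% and 51.7% lay below vehicle in the signal table, and 50.1% and 50.3% in the series matrix. Limma's unadjusted p was under 0.05 for 5 complex I clusters at each dose in the signal table, all lower, beside 5.6% and 7.12% of all clusters kept. In the series matrix it was so for 1 and 2, all lower, beside 2.51% and 3.32%, and 0 passed after adjustment. The cluster that names both Ndufa13 and Yjefn3 is among the 5 at each dose and the 2 in the series matrix. The differences ran from -0.88 to 0.64 at 1% LA and from -0.93, in that cluster, to 0.70 at 10% LA.

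Ndufs5, an accessory subunit on the intermembrane side, read 12.21, 13.66 and 13.76 in vehicle replicates 1 to 3. It read 12.41, 12.55 and 12.11 at 1% LA, and 12.19, 12.94 and 11.90 at 10% LA. Vehicle replicates 2 and 3 were above all other arrays, and vehicle replicate 1 lay among the treated ones, so the groups overlapped. The group means were 13.21 ± 0.87 (SD, n = 3) for vehicle, 12.36 ± 0.22 (SD, n = 3) at 1% LA and 12.34 ± 0.54 (SD, n = 3) at 10% LA. The differences were -0.85 (SE 0.38, limma adjusted p = 0.415) and -0.87 (SE 0.38, adjusted p = 0.350). With vehicle replicate 3 at 12.21 in the series matrix, they were -0.41 and -0.39 there. Its promoter, shown above, holds an NRF1 match.

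Ndufa5, an accessory subunit of the peripheral arm, showed the largest difference among single-symbol members of complex I at 1% LA. It read 12.41, 13.67 and 13.63 in the vehicle arrays and 12.69, 12.52 and 11.85 at 1% LA, a difference of -0.88 (SE 0.36, limma adjusted p = 0.385). At 10% LA it read 12.28, 13.16 and 12.41, with a difference of -0.62 (SE 0.36, adjusted p = 0.449). Again vehicle replicate 1 lay among the treated arrays and the other 2 vehicle arrays above them all. The series matrix put vehicle replicate 3 at 12.42 and the differences at -0.47 and -0.21.

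Ndufb10, an accessory subunit of the membrane arm, had the largest difference of the single-symbol complex I members at 10% LA. It read 9.34, 10.65 and 10.54 in the vehicle arrays, 9.83, 9.46 and 9.44 at 1% LA and 8.90, 9.86 and 9.09 at 10% LA. The difference was -0.89 at 10% LA (SE 0.34, limma adjusted p = 0.319) and -0.60 at 1% LA (SE 0.34, adjusted p = 0.490). The pattern of the vehicle arrays was that of Ndufs5, and the series matrix gave -0.42 and -0.25.

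The vehicle arrays of Ndufab1 lay close together. Ndufab1, the mitochondrial acyl carrier protein that also serves fatty acid synthesis, read 13.55, 13.47 and 13.50 in the vehicle arrays. It read 13.14, 12.91 and 13.29 at 1% LA and 13.20, 13.17 and 13.02 at 10% LA, so that all 3 vehicle arrays lay above all 6 treated arrays. The differences were -0.39 (SE 0.16, limma adjusted p = 0.392) and -0.38 (SE 0.16, adjusted p = 0.343). In the series matrix vehicle replicate 3 read 13.30, the differences were -0.29 and -0.30, and the vehicle arrays still lay above the 10% LA arrays.

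Ndufs6, an accessory subunit that binds zinc, read 12.67, 12.87 and 12.88 in the vehicle arrays, 12.45, 12.48 and 11.76 at 1% LA and 12.14, 12.70 and 12.18 at 10% LA. The 1% LA arrays lay below all vehicle arrays, and 1 of the 10% LA arrays lay above the lowest vehicle array. The differences were -0.58 (SE 0.23, limma adjusted p = 0.385) and -0.47 (SE 0.23, adjusted p = 0.394). Vehicle replicate 3 read 12.35 in the series matrix, with differences of -0.40 and -0.23.

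Ndufb6, an accessory subunit of the membrane arm, read 11.73, 12.03 and 11.37 in the vehicle arrays, 11.70, 11.49 and 11.27 at 1% LA and 11.28, 11.20 and 10.78 at 10% LA. The 10% LA arrays lay below all vehicle arrays in the signal table but not in the series matrix, and the 1% LA arrays overlapped with vehicle. Its difference at 10% LA, -0.62 (SE 0.22, limma adjusted p = 0.312), was -0.51 in the series matrix. At 1% LA the difference was -0.22, and -0.11 in the series matrix.

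The cluster that names both Ndufa13 and Yjefn3 read 8.07, 8.46 and 8.81 in the vehicle arrays, 7.82, 7.74 and 7.81 at 1% LA and 7.30, 8.17 and 7.07 at 10% LA. It is named here after its values were seen. Its differences of -0.66 and -0.93 cannot be given to either gene, and were -0.42 and -0.73 in the series matrix. The other Ndufa13 cluster differed by -0.33 and -0.23, and by -0.13 and -0.016 in the series matrix.

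Not all of complex I lay lower. Ndufs7, a core subunit that carries the last iron-sulfur cluster before ubiquinone, read 12.12, 11.44 and 11.03 in the vehicle arrays, 12.05, 11.73 and 12.74 at 1% LA and 12.84, 11.71 and 12.13 at 10% LA. Vehicle replicates 2 and 3 were the 2 lowest arrays, the mirror image of Ndufs5. Its differences were 0.64 and 0.70 in the signal table (SE 0.35, limma adjusted p = 0.476 and 0.402) and 0.26 and 0.30 in the series matrix. Ndufs7 was named after its values were seen.

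**Figure D4:**
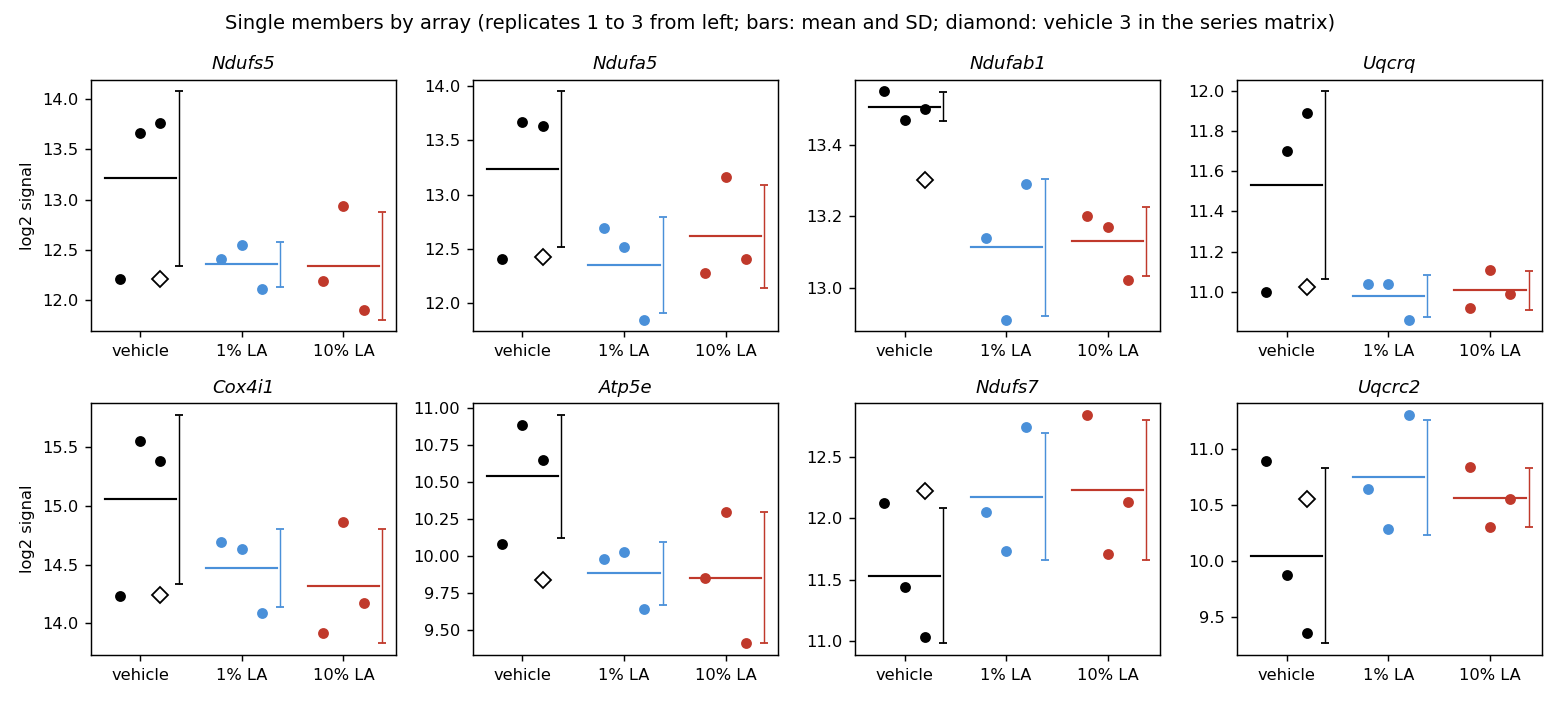
Log2 signal of 8 members by array. Filled points are replicates 1 to 3 from left to right in each group, lines and bars are the mean and SD (n = 3), and the open diamond is vehicle replicate 3 in the series matrix. In Ndufs5 this array read 13.76 in the signal table and 12.21 in the series matrix, and in Ndufs7 11.03 and 12.22.

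Complex II has 4 subunits, all encoded in the nucleus, and none differed at an unadjusted p under 0.05 in either comparison with vehicle. Below vehicle lay 1 at 1% LA and 2 at 10% LA in the signal table, and 3 and 4 in the series matrix. Of all clusters, 52.3% and 51.7% did so in the signal table, and 50.1% and 50.3% in the series matrix. Sdha, the flavoprotein, read 11.07, 11.13 and 10.96 in the vehicle arrays, 11.09, 11.18 and 11.27 at 1% LA and 11.08, 11.03 and 10.99 at 10% LA. Its differences were 0.13 and -0.020 (SE 0.15), and 0.073 and -0.095 in the series matrix, and its 10% LA arrays lay below its 1% LA arrays in both tables. They also lay below all vehicle arrays in the series matrix, but not in the signal table. Sdhb, the iron-sulfur subunit, read 12.14, 11.98 and 11.90, then 11.97, 12.02 and 11.87, then 11.91, 11.92 and 11.86 in the vehicle, 1% LA and 10% LA arrays, with differences of -0.053 and -0.11 (SE 0.15), and -0.031 and -0.067 in the series matrix. For these 2 subunits all 9 arrays lay within a narrow band.

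The membrane anchors Sdhc and Sdhd varied more, and vehicle replicate 3 was the lowest array of both. Sdhc read 10.07, 10.10 and 9.52 in the vehicle arrays, 10.51, 9.94 and 9.83 at 1% LA and 9.70, 10.05 and 10.01 at 10% LA, and vehicle replicate 3 stood at 10.28 in the series matrix. Its difference at 1% LA was 0.20 (SE 0.23, limma adjusted p = 0.741) in the signal table and -0.024 in the series matrix. Sdhd read 11.11, 10.98 and 10.32 in the vehicle arrays, 10.93, 10.74 and 11.27 at 1% LA and 11.17, 10.56 and 10.80 at 10% LA, with vehicle replicate 3 at 11.09 in the series matrix. Its differences were 0.18 and 0.040 (SE 0.25), and -0.033 and -0.25 in the series matrix.

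In complex III, 5 of 8 subunits lay below vehicle at each dose, beside 52.3% and 51.7% of all clusters. Uqcrq alone had an unadjusted p under 0.05, at both doses. Uqcrq, a small subunit next to cytochrome b, read 11.00, 11.70 and 11.89 in the vehicle arrays, 11.04, 11.04 and 10.86 at 1% LA and 10.92, 11.11 and 10.99 at 10% LA. The 6 treated arrays lay between 10.86 and 11.11, vehicle replicate 1 among them, and vehicle replicates 2 and 3 above. The differences were -0.55 (SE 0.22, limma adjusted p = 0.385) and -0.52 (SE 0.22, adjusted p = 0.335). The series matrix put vehicle replicate 3 at 11.02 and the differences at -0.26 and -0.23.

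Uqcr11, another small subunit, had the largest difference in complex III at 10% LA, -0.57 (SE 0.26, limma adjusted p = 0.362). It read 9.55, 10.61 and 10.51 in the vehicle arrays and 9.59, 9.84 and 9.53 at 10% LA, with vehicle replicate 1 again among the treated arrays, and the series matrix gave -0.36. Uqcrc2, a core protein on the matrix side, went the other way at 1% LA, with 0.70 (SE 0.36, adjusted p = 0.453), the largest difference in complex III at that dose. It read 10.90, 9.88 and 9.36 in the vehicle arrays, 10.65, 10.29 and 11.31 at 1% LA and 10.84, 10.31 and 10.56 at 10% LA. Vehicle replicates 2 and 3 were the lowest arrays, and the series matrix put vehicle replicate 3 at 10.56 and the differences at 0.29 and 0.071. Its partner core protein Uqcrc1 differed by -0.36 and -0.41 in the signal table and by -0.14 and -0.11 in the series matrix.

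In complex IV, 10 of 19 members lay below vehicle at 1% LA and 9 at 10% LA, beside 52.3% and 51.7% of all clusters. Of the 16 kept, 0 had an unadjusted p under 0.05 in either direction. Its families of isoforms pair a form found in most tissues with forms known from muscle, lung or testis. Cox4i1, the common form of the regulatory subunit that binds ATP, had the largest difference in complex IV at both doses, and read 14.23, 15.55 and 15.38 in the vehicle arrays, 14.69, 14.63 and 14.09 at 1% LA and 13.92, 14.86 and 14.17 at 10% LA. The differences were -0.58 (SE 0.35, limma adjusted p = 0.506) and -0.74 (SE 0.35, adjusted p = 0.371). Vehicle replicates 2 and 3 stood highest in the signal table, vehicle replicate 3 read 14.24 in the series matrix, and the differences there were -0.18 and -0.33. Cox4i2, the lung form induced by low oxygen, lay below the filter, with 5.31, 6.46 and 6.36 in the vehicle arrays and differences of -0.30 and -0.27, and of -0.054 and -0.0071 in the series matrix.

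Cox6b1, which lies between the monomers of the complex IV dimer, lay above vehicle in all 6 treated arrays. It read 13.74, 13.83 and 13.57 in the vehicle arrays, 14.03, 13.98 and 13.88 at 1% LA and 13.96, 13.92 and 13.89 at 10% LA, and the groups did not overlap at either dose in either table. The differences of 0.25 and 0.21 (SE 0.15) had limma adjusted p-values of 0.518 and 0.548, and those in the series matrix were 0.22 and 0.15. Among the 93 members, groups did not overlap in 2 higher and 13 lower at 1% LA and in 1 higher and 5 lower at 10% LA. Over all clusters kept, 7.01% and 7.43% did so at 1% LA and 6.76% and 7.87% at 10% LA. The series matrix gave 1 higher and 8 lower members at 1% LA (4.47% and 4.95% of all clusters) and 2 higher and 7 lower at 10% LA (4.68% and 5.76%). The testis form Cox6b2 lay below the filter.

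Of the other families, the members kept gave differences within 0.5 log2 units and no unadjusted p under 0.05. Cox6a1, the common form, differed by 0.24 at both doses, and by -0.084 and -0.052 in the series matrix, and Cox6a2, the form of heart and skeletal muscle, by 0.097 and 0.29, and by 0.091 and 0.30 in the series matrix. Cox7a2, the common form, differed by -0.46 and -0.45, and by -0.38 and -0.28 in the series matrix. Cox7a1, the muscle form, differed by -0.090 and 0.15, and by -0.21 and 0.031 there. Cox7a2l, a factor that joins complexes III and IV into supercomplexes, differed by -0.15 and 0.010, and by -0.19 and -0.048 there. Signs thus turned between the tables for Cox6a1 at both doses and for Cox7a2l at 10% LA. Cox7b differed by -0.13 and -0.15, with the sign turned in the series matrix (0.060 and 0.029), and the testis form Cox7b2 by 0.033 and 0.040, and by 0.068 and 0.15 there. Cox8a differed by 0.32 at both doses and by 0.12 and 0.11 in the series matrix, and Cox8c, a testis form, by 0.31 and 0.12, but by -0.14 and -0.34 in the series matrix. Cox8b, the muscle form, lay below the filter, at 4.24, 4.31 and 4.80 in the vehicle arrays. Its differences were 0.48 and 0.28, and 0.38 and 0.13 in the series matrix, and in a fit with no filter its unadjusted p at 1% LA was under 0.05 (limma adjusted p = 0.478). Ndufa4, named for complex I but a subunit of complex IV, differed by -0.17 and -0.21, and by -0.041 and -0.072 in the series matrix, and its paralogue Ndufa4l2 lay below the filter.

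In complex V, 9 of 16 subunit clusters lay below vehicle at 1% LA and 8 at 10% LA, beside 52.3% and 51.7% of all clusters. Atp5e, the small epsilon subunit of the central stalk, was the only subunit with an unadjusted p under 0.05, at both doses in the signal table. It read 10.08, 10.89 and 10.65 in the vehicle arrays, 9.98, 10.03 and 9.64 at 1% LA and 9.85, 10.30 and 9.41 at 10% LA. All 1% LA arrays lay below all vehicle arrays, vehicle replicate 1 by 0.05 only, and 1 of the 10% LA arrays lay above vehicle replicate 1. The differences were -0.66 (SE 0.26, limma adjusted p = 0.385) and -0.69 (SE 0.26, adjusted p = 0.319). With vehicle replicate 3 at 9.84 in the series matrix, they were -0.38 and -0.40 there. Its promoter, shown above, holds an ETS match.

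The catalytic subunits Atp5a1 and Atp5b, alpha and beta, differed by 0.060 and -0.0033 at 1% LA and by 0.080 and -0.073 at 10% LA. The series matrix gave -0.013 and -0.051, and 0.012 and -0.12. The 3 genes of the proton-carrying ring subunit c encode the same mature protein. Atp5g1 differed by 0.28 and 0.16, Atp5g2 by 0.36 and 0.39 and Atp5g3 by -0.21 and -0.10, and in the series matrix Atp5g1 differed by 0.12 and -0.0040 and Atp5g3 by -0.16 and -0.077. Atp5g2 read 14.35, 13.87 and 13.47 in the vehicle arrays, and vehicle replicates 2 and 3 were its lowest arrays. The series matrix put Atp5g2 at 0.050 and 0.076. The 2 clusters of Atp5d, the delta subunit, did not go the same way at 1% LA, with -0.20 and 0.38, and -0.045 and 0.072 in the series matrix.

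The assembly factors are not part of the finished complexes and help to build them. For the 11 that share the member prefixes, the median difference was -0.22 at 1% LA and -0.44 at 10% LA in the signal table, and -0.041 and -0.19 in the series matrix. At 10% LA, 9 of 11 lay below vehicle in the signal table and 10 in the series matrix, beside 51.7% and 50.3% of all clusters. Of the 10 kept, 4 had an unadjusted p under 0.05 in the signal table and 3 in the series matrix, all lower. By that rule 7.12% and 3.32% of all clusters were lower. After adjustment over all clusters 0 passed in either table.

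Ndufaf5, which hydroxylates the core subunit Ndufs7 during assembly, read 10.34, 10.05 and 10.17 in the vehicle arrays, 9.58, 9.98 and 9.73 at 1% LA and 9.33, 10.17 and 9.14 at 10% LA. The differences were -0.42 (SE 0.25, limma adjusted p = 0.505) and -0.64 (SE 0.25, adjusted p = 0.322), and -0.58 and -0.71 in the series matrix. The vehicle arrays lay close together in both tables, and 10% LA replicate 2 lay among them in the signal table. Ndufaf1, a factor of the membrane arm, read 7.89, 7.96 and 8.29 in the vehicle arrays and 7.45, 7.89 and 7.57 at 10% LA, a difference of -0.41 (SE 0.19, adjusted p = 0.355), and of -0.32 in the series matrix. The reading of 10% LA replicate 2 equalled the lowest vehicle array to 2 decimals.

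Sdhaf2, which puts the flavin onto Sdha, read 9.51, 9.40 and 9.39 in the vehicle arrays, 9.10, 9.10 and 9.30 at 1% LA and 9.15, 9.02 and 8.27 at 10% LA. All 6 treated arrays lay below all vehicle arrays, and 10% LA replicate 3 lay lowest. The difference at 10% LA was -0.62 (SE 0.22, limma adjusted p = 0.313), and -0.52 in the series matrix. Sdhaf1, which helps to insert iron-sulfur clusters into Sdhb, read 6.26, 6.73 and 6.44 in the vehicle arrays, 6.72, 5.99 and 6.07 at 1% LA and 6.11, 5.87 and 5.96 at 10% LA. Its 10% LA arrays lay below all vehicle arrays in both tables, by -0.50 on average in the signal table (SE 0.22, adjusted p = 0.348) and by -0.54 in the series matrix.

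Between the doses, limma gave 1 member an unadjusted p under 0.05, higher at 10% LA, beside 0.968% of all clusters higher and 1.07% lower, and no member passed after adjustment (smallest adjusted p = 0.99986). Atp5s, once named for coupling factor B and not a subunit of the enzyme, read 7.35, 8.14 and 8.00 at 1% LA and 8.52, 8.33 and 8.40 at 10% LA. The difference was 0.59 (SE 0.27, limma adjusted p = 0.99986), and 0.61 in the series matrix. The vehicle arrays, at 8.47, 7.65 and 7.58, overlapped with both groups. By the same rule the series matrix gave 2 members higher and 0 lower, beside 1.06% and 1.32% of all clusters. The dose groups did not overlap in 1 member higher and 2 lower at 10% LA (2.73% and 3.51% of all clusters), and in 3 and 2 in the series matrix (2.97% and 3.85%). The median of the members' own differences between the doses (10% LA minus 1% LA) was 0.0033 for complex I, -0.14 for complex II, -0.073 for complex III, 0 for complex IV and -0.020 for complex V.

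The counts for the whole set turned on single arrays, in the vehicle group and in the treated groups. Without vehicle replicate 1, limma called 2 members at 1% LA (Ndufs5 at -1.35 and Uqcrq at -0.82, both at adjusted p = 0.0472) and 6 at 10% LA, all lower. Over all clusters, 0.548% were then called lower and 1.1% higher at 1% LA, and 1.76% lower and 2.25% higher at 10% LA. The 6 were Ndufb7 (-1.13, adjusted p = 0.0210), Ndufa2 (-1.24), Ndufs5 (-1.37), Uqcr11 (-0.91), Ndufb10 (-1.31) and Uqcrq (-0.79), and Ndufb7 and Ndufa2 were named after their values were seen. Members with an unadjusted p under 0.05 then numbered 8 higher and 25 lower of 94 at 1% LA, beside 12.6% and 10.7% of all clusters, and 9 higher and 30 lower at 10% LA, beside 12.5% and 12.4%. Without vehicle replicate 2, members with an unadjusted p under 0.05 in either direction numbered 0 at 1% LA and 3 at 10% LA, beside 7.77% and 8.63% of all clusters. Without vehicle replicate 3 they numbered 2 and 4, beside 6.03% and 6.88%, and neither fit called a member after adjustment. By the same rule 4 members passed at 1% LA without 1% LA replicate 1 (9.31% of all clusters) and 1 without 1% LA replicate 3 (7.58%). At 10% LA, 22 passed without 10% LA replicate 2 (17.1% of all clusters), 3 without 10% LA replicate 1 (8.42%) and 1 without 10% LA replicate 3 (7.83%). The complex I median was -0.37 and -0.36 at the 2 doses without vehicle replicate 1 and -0.13 and -0.105 without vehicle replicate 2. With the choroid plexus level added to the fit they numbered 0 at 1% LA and 8 at 10% LA, beside 4.49% and 8.99% of all clusters, and the complex I median at 1% LA was -0.39.

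**Figure D5:**
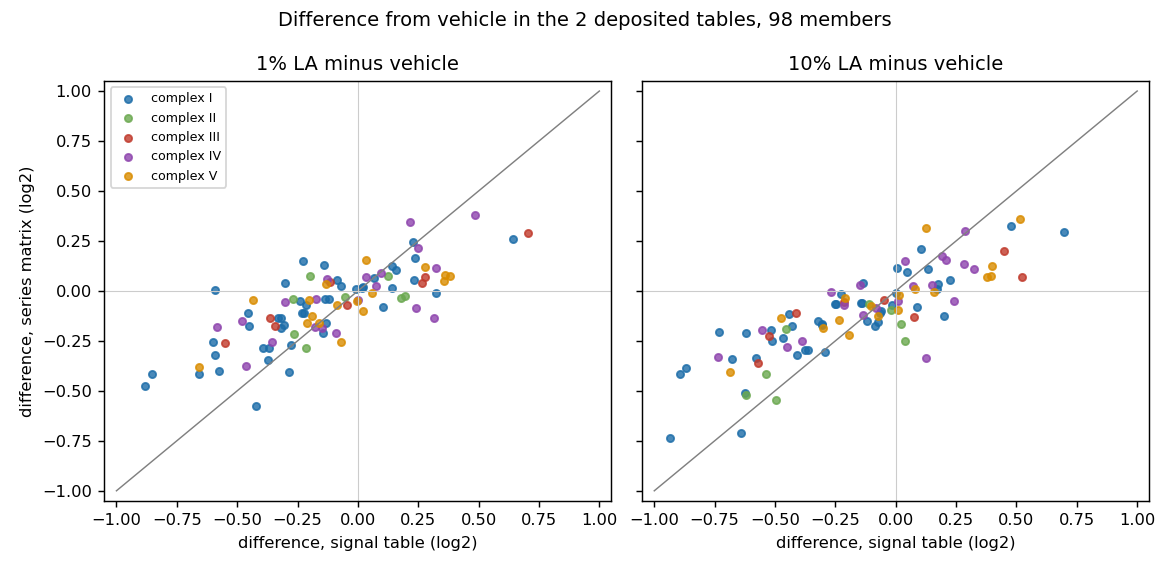
Difference from vehicle of the 98 members in the signal table (horizontal) and in the series matrix (vertical), in log2 units, at 1% LA (left) and 10% LA (right). Each point is 1 cluster coloured by complex, and the diagonal marks equal values. At 1% LA, Ndufs5 lies at -0.85 in the signal table and at -0.41 in the series matrix.

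The authors' criteria, per the design text, were a linear fold above 2 with p under 0.05, not stated to be adjusted. The authors' deposited table, with its own group averages, lists 320 such clusters at 1% LA and 343 at 10% LA, and 0 with an FDR under 0.05. In the authors' deposited table, members that met these criteria at 1% LA numbered 2 (1.44% of all clusters did), Ndufs5 with a signed fold of -2.51 and Ndufa5 with -2.15. At 10% LA the authors' deposited table has 4 (1.54% of all clusters did): Ndufs5 with -2.76, Ndufb10 with -2.90, Ndufb7 with -2.20, and the cluster of Ndufa13 and Yjefn3 with -2.24. These folds are larger than the group means of the signal table give. From those means Ndufs5 differed by -0.85 and Ndufa5 by -0.88 log2 units at 1% LA. At 10% LA Ndufs5 differed by -0.87, Ndufb10 by -0.89, Ndufb7 by -0.68 and the cluster of Ndufa13 and Yjefn3 by -0.93. All are less than 2-fold, and in limma's fit of these values 0 members met the same criteria at either dose. The smallest FDR of a member in the authors' deposited table was 0.4765 at 1% LA and 0.411 at 10% LA.

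Genes around the pathway were counted from fixed lists, and 0 of their clusters passed limma's test after adjustment in any of the 3 comparisons. Of 33 assembly factors of complexes II to V and 14 of complex I, 29 and 13 lay above the filter, with Sdhaf and Ndufaf genes among them. In the signal table the medians of these fuller lists lay nearer to 0 than that of the 11 factors above. They were -0.037 and -0.087 for complexes II to V and -0.012 and -0.045 for complex I. In the series matrix they were -0.072 and -0.052, and 0.073 and -0.030. There they lay nearer to 0 than the 11 factors at 10% LA, but not at 1% LA, where the 11 factors had -0.041. At 10% LA, 1 gene of each list was higher at an unadjusted p under 0.05 (Cox16 at 0.38 and Acad9 at 0.47) and 3 and 2 were lower. The lower genes were Sdhaf1, Sdhaf2 and Uqcc3, and Ndufaf1 and Ndufaf5. Of these only Uqcc3 was not already counted among the 11 factors above. Of all clusters kept, 6.79% were higher and 7.12% lower by that rule. In the series matrix 0 were higher and 3 and 1 lower, beside 2.42% and 3.32% of all clusters. Sdhaf1, Sdhaf2 and Ndufaf5 were again among the lower genes. Uqcc3, an assembly factor of complex III, read 10.05, 9.84 and 10.06 in the vehicle arrays, 9.53, 9.21 and 9.41 at 1% LA and 9.33, 9.78 and 9.64 at 10% LA, with differences of -0.60 (SE 0.18, adjusted p = 0.356) and -0.40 (SE 0.18, adjusted p = 0.353). All treated arrays lay below all vehicle arrays, and vehicle replicate 3 read 9.93 in the series matrix. Acad9, an assembly factor of complex I, differed by 0.41 and 0.47 in the signal table and by 0.13 and 0.21 in the series matrix, and the copper chaperone Cox17 by -0.43 and -0.36, and by -0.38 and -0.30.

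Of 19 genes of the citric acid cycle and of pyruvate enzymes that feed it, 1 had an unadjusted p under 0.05 at each dose in the signal table. By that rule 6.33% and 6.79% of all clusters were higher, and 0 of the 19 genes passed in the series matrix. The gene was Pdha1, a subunit of pyruvate dehydrogenase and not of a cycle enzyme, with 0.47 and 0.49, and 0.30 and 0.32 in the series matrix. Of 16 other electron carriers and respiratory proteins, 1 did at 1% LA in the signal table, Etfdh, which feeds electrons from fatty acid oxidation to ubiquinone. It differed by 0.61 and 0.39, and by 0.15 and -0.032 in the series matrix, where by that rule Etfb, of the same electron path, was lower at 10% LA (-0.40) and 0 genes passed at 1% LA. Etfb is named after its values were seen. Among 21 regulators of mitochondrial biogenesis, 18 lay above the filter. By that rule 2 were lower at 1% LA, where 5.6% of all clusters were. These were Ppargc1b at -0.67 (-0.80 in the series matrix) and Polrmt, the mitochondrial RNA polymerase, at -0.65 (-0.32). At 10% LA 2 were higher and 2 lower, beside 6.79% and 7.12% of all clusters. In the series matrix 0 were higher and 2 lower at that dose, beside 2.42% and 3.32%. Nrf1, which encodes the factor whose motif was counted above, read 8.56, 8.80 and 8.05 in the vehicle arrays, 8.10, 8.32 and 7.51 at 1% LA and 8.02, 7.96 and 7.20 at 10% LA. Its 10% LA arrays lay below all vehicle arrays, by -0.74 on average (SE 0.29, limma adjusted p = 0.319), and by -1.01 in the series matrix (adjusted p = 0.838). Ppargc1a, a coactivator of NRF1, read 12.53, 11.61 and 11.38 in the vehicle arrays and 12.19, 12.46 and 12.89 at 10% LA, a difference of 0.67 (SE 0.28, limma adjusted p = 0.334) with vehicle replicates 2 and 3 as the low arrays. Vehicle replicate 3 read 12.40 in the series matrix, and the difference was 0.31 there. The other 2 were Tfb2m, a mitochondrial transcription factor, at 0.64 (0.23 in the series matrix) and Esrrg, a nuclear receptor, at -0.44 (-0.51).

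The proteins of the mitochondrial ribosome, which make the subunits encoded in mitochondrial DNA, had a median difference of -0.053 at 1% LA and -0.11 at 10% LA over 77 clusters, and those of the cytosolic ribosome -0.087 and -0.017 over 90 clusters. Their medians in the series matrix were -0.0042 and -0.074, and -0.025 and 0.047, so that the sign turned for the cytosolic ribosome at 10% LA. Of the 74 mitochondrial ribosomal clusters kept, 2 were higher and 6 lower at an unadjusted p under 0.05 at 1% LA, beside 6.33% and 5.6% of all clusters, and 2 higher and 7 lower at 10% LA, beside 6.79% and 7.12%. The series matrix gave 1 higher and 0 lower at 1% LA (2.3% and 2.51% of all clusters), and 0 higher and 2 lower at 10% LA (2.42% and 3.32%). Mrps25, of the small subunit, had differences of -1.01 (SE 0.32, limma adjusted p = 0.356) and -1.08 (SE 0.32, adjusted p = 0.312), and -0.70 and -0.77 in the series matrix. Mrpl33 and Mrpl49, of the large subunit, went the other way, with 0.61 and 0.45 at 1% LA and 0.53 and 0.45 at 10% LA, and with 0.24 and 0.31, and 0.11 and 0.37, in the series matrix.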

How the data were processed

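Hippocampal RNA of 9 mice was measured on 1 Clariom S array each, 3 per group. The deposited signal table and series matrix hold log2 values per transcript cluster, normalized by the authors with SST-RMA, per the design text and the submitters' processing notes; these notes also name Transcriptome Analysis Console 4 and limma. Per the file headers, the deposited comparison tables give a signed linear fold, a p-value and an FDR for each cluster. The authors' analysis is named as one-way with an empirical Bayes correction in the design text. Which column of vehicle replicate 3 belongs to that mouse, and the genome build, are not given in the sources used here.

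Values were used as deposited. Of 22206 clusters, 22203 had a symbol, and 13321 were kept with a mean log2 signal above the 40th percentile. Limma 3.58.1 (R 4.3.3) took 1 mean for each group in a single fit of the 9 arrays, without a block. Benjamini-Hochberg adjustment ran over all clusters kept, with a threshold of 0.05. Complex medians take all subunit clusters, filtered or not, and Cox7a2l with complex IV, with no test. The fit was tested on simulated data. Separate mice are taken as replicates, from the titles. Members, lists and the classes of members were chosen with earlier results of these data known. Members with 1 symbol are named where they are among the 10 smallest unadjusted p-values under 0.05 in a comparison with vehicle (5 between the doses), have the largest difference of a complex, belong to a fixed isoform family or to complex II; of each other list up to 4 are named. Python 3.11.15 with pandas 2.3.3 made counts, and promoter windows came from RefSeq. Alternatives were other tables, filters, scalings, fits and each array left out.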

Additional observations from a re-analysis of the deposited data

How the results depend on the processing

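Under the alternatives, 342 values of the main results kept their direction and their side of the threshold or moved by less than the spread. The cause of each change below was not tested. With the series matrix the members at an unadjusted p under 0.05 numbered 2, 5 and 2 (1% LA, 10% LA, and between the doses) in place of 7, 11 and 1, and the complex II median at 1% LA was -0.027. With the series matrix without vehicle replicate 3 they numbered 0 and 4, and the medians of complex II were -0.016 at 1% LA and -0.14 at 10% LA and that of complex V at 10% LA was -0.10. Fits on the 2 groups compared gave 7 at 10% LA and 3 between the doses, a filter at the 60th percentile gave 0 between the doses, and quantile normalization gave 2 there. Quantile normalization put complex V at -0.12 and -0.076. The choroid plexus covariate gave 0 members at 1% LA, complex I at -0.39 and complex V at -0.15 at 1% LA, -0.089 at 10% LA and 0.029 between the doses. By the submitters' criteria this fit counted 188, 145 and 10 clusters. Leaving out 1 array at a time gave 0 to 220 clusters called at 1% LA and 0 to 534 at 10% LA (220 and 534 without vehicle replicate 1, 1 and 3 without vehicle replicate 2), 0 to 2 and 0 to 6 members called, and 0 to 33, 1 to 39 and 0 to 4 members at an unadjusted p under 0.05. At 10% LA that count was 22 without 10% LA replicate 2, 3 without 10% LA replicate 1 and 1 without 10% LA replicate 3, and at 1% LA it was 4 without 1% LA replicate 1 and 1 without 1% LA replicate 3, with the shares of all clusters given above. Over the same fits complex I ranged from -0.37 to -0.13 at 1% LA and from -0.36 to -0.105 at 10% LA, complex III from -0.21 (without 1% LA replicate 1) to -0.0067 (without 1% LA replicate 3) and from -0.235 (without vehicle replicate 1) to -0.064 (without 10% LA replicate 1), complex II ranged from -0.028 to 0.22 at 1% LA and from -0.16 to 0.072 at 10% LA, complex IV from -0.11 to 0 at 1% LA and from -0.12 to 0.028 between the doses, and complex V from -0.11 to 0.0058 at 1% LA and from -0.10 to 0.013 at 10% LA. The Sdhc difference at 1% LA turned to -0.024 in the series matrix and ranged from -0.012, without 1% LA replicate 1, to 0.33 over the fits that left out an array. Same-numbered arrays deviated together at correlations from -0.17 to 0.17, so the numbers were not taken to pair mice, and with the replicate block 6, 11 and 1 members had an unadjusted p under 0.05 and 0 were called.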
